A study of Homo sapiens with 3 samples.

Results

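CREM, CREB1 and ATF1 are the transcription factors of the cAMP response, and CRTC1, CRTC2, CRTC3, CREBBP and EP300 are their coactivators. MM1S cells, a cell line established from a human multiple myeloma, were the source of the RNA. They were cultured alone or with FK866, an inhibitor of NAMPT, which recycles nicotinamide into NAD. The groups were untreated cells, labelled 0 h, and cells cultured with 10 nM FK866 for 6 h or 24 h, with 1 Affymetrix array each and the same medium and serum throughout. The series holds 0 untreated arrays at 6 h or 24 h, so FK866 and time in culture cannot be told apart. With 1 array per group no difference has a replicate check, no test was run, and all differences below describe these 3 arrays. The members are all probe sets to which the platform annotation gives exactly 1 gene symbol, one of the 8 genes named above. They number 24 of 41091 probe sets with 1 symbol and cover 7 of the 8 genes, because ATF1 is named by 0 probe sets. They were chosen by the CREM signals of these same arrays, which had been seen to be low in treated cells, so the CREM values are given as a description.

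CREM, CREB1 and ATF1 share a basic leucine zipper and bind the cAMP response element, CRE. When cAMP rises, protein kinase A (PKA) phosphorylates them and the acetyltransferases CREBBP (CBP) and EP300 (p300) are recruited, while CRTC proteins enter the nucleus and bind the leucine zipper. CREM is spliced into activators and repressors. An internal promoter with clustered CREs makes ICER, a short repressor that is itself induced by cAMP and closes a feedback loop.

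RefSeq's promoter table (GRCh38.p14) holds 7 annotated starts of CREM on chromosome 10, plus strand. The 250 bases before each were searched on both strands for the palindromic CRE TGACGTCA and for the variant TGATGTCA, reverse complement TGACATCA. The variant was chosen after the windows were read. The windows of the first start and of later, internal starts are shown because the first has neither motif whereas the internal ones do. Whether the starts bear on any difference among the CREM probe sets was not tested. Capitals mark matches, and each 250-base window ends 1 base before its start.
First annotated start (chr10:35126596-35126845): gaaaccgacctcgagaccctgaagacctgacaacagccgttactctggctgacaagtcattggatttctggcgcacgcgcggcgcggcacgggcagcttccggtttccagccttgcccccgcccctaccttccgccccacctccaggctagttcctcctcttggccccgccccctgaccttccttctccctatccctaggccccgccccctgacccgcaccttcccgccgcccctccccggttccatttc
Internal start, 40718 bases after the first (chr10:35167314-35167563): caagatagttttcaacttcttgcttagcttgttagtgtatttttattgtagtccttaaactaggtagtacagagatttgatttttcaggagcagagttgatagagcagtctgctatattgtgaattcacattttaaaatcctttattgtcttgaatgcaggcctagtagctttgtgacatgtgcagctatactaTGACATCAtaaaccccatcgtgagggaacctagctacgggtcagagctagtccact
Internal start, 68287 bases after the first (chr10:35194883-35195132): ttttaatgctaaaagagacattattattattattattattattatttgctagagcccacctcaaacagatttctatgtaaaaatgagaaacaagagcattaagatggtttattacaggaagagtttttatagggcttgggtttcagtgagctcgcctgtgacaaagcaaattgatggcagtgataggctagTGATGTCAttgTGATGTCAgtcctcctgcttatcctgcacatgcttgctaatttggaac
Internal start, 69004 bases after the first (chr10:35195600-35195849): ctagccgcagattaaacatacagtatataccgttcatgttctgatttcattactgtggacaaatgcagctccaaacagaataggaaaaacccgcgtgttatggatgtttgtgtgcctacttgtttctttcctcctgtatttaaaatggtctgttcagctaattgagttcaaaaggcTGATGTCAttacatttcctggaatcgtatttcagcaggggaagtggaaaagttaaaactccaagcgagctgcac
30 bases around the CRE before the last start, which lies 69056 bases after the first (chr10:35195841-35195870): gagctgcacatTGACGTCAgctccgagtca

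TGACGTCA occurred once, 50 to 43 bases before the last start, and TGATGTCA at 4 distinct sites. All 5 sites lay before the 4 internal starts, and 0 before the 3 starts within 381 bases of the first. Of 35116 windows of the same length, 1.65% hold TGACGTCA and 2.37% TGATGTCA. The 9 windows of the 6 other members in that table (CREB1, ATF1, CRTC1, CRTC3, CREBBP and EP300) hold neither. A match is letters in a window, and the arrays measure neither binding nor the start in use.

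The cells had the markers of their label. All 10 plasma cell and myeloma markers passed the filter on level, which keeps probe sets with a mean log2 signal at or above the median (a signal of 19.1), and their summed signal was 41708 without FK866, 40083 at 6 h and 40043 at 24 h. Of the markers of other cells, 0 of 4 for B cells, 0 of 4 for T and NK cells, 2 of 4 for myeloid cells and 1 of 4 for stroma passed, with summed signals of at most 69.2 per class. In bulk RNA, fewer cells with a transcript and less of it per cell cannot be told apart. The deposited medians were 20.5, 17.4 and 17.2, and the median kept probe set with 1 symbol differed from untreated cells by -0.13 at 6 h and -0.16 at 24 h on the log2 scale. The direction of differences near this size depends on the scaling, and that of some larger ones did too. For example, 204312_x_at of CREB1 differed by -0.21 at 24 h, and by 0.05 after centring on array medians. Past 2-fold at 6 h lay 308 of 22601 such probe sets on the higher side and 976 on the lower side, against 530 and 505 after quantile normalization. At 24 h the split was 250 and 1188, against 529 and 611.

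CREM had 6 probe sets, and the signal was highest in untreated cells and lowest at 24 h in 6 of 6. Probe set 209967_s_at read 2973 untreated, 587 after 6 h and 83.7 after 24 h. Probe set 207630_s_at read 1929, 387 and 89.2, and 214508_x_at 1148, 276 and 85. The plain probe set 230511_at read 426, 80 and 26.7. In these 4 the 6 h signal lay between 18.8% and 24.1% of the untreated one, and the 24 h signal between 2.82% and 7.41%.

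The other pair behaved differently. Probe set 228092_at read 650.1 without FK866, 527 at 6 h and 376 at 24 h, which is 81.1% and 57.9% of the untreated signal. The dim probe set 210171_s_at read 21.2, 16.7 and 12, did not pass the filter on level and lay under the floor of 16 at 24 h. Signals below this floor were set to it before log2 values were taken.

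**Figure D1:**
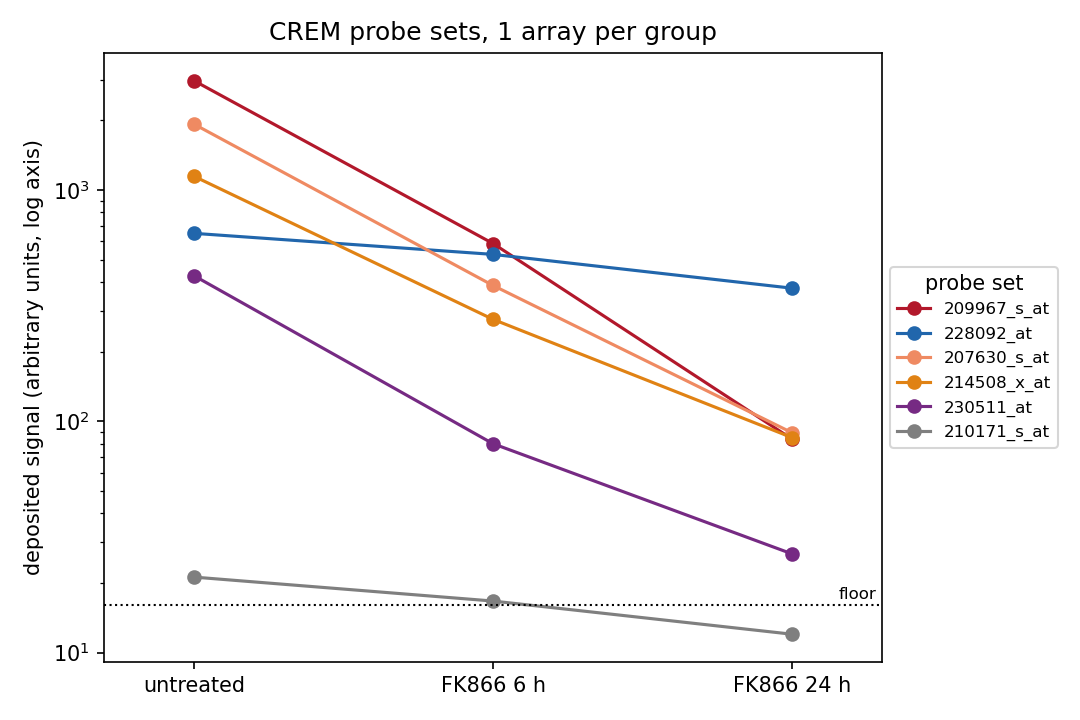
Deposited signal of the 6 CREM probe sets on a log axis in untreated cells and after 6 h and 24 h of FK866, 1 point per array. Probe sets 209967_s_at, 207630_s_at, 214508_x_at and 230511_at run steeply down, 228092_at declines from 650.1 to 376, and 210171_s_at lies near the floor of 16 (dotted).

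At 6 h, 4 of the 5 kept CREM probe sets were at least 2-fold lower, beside 4.32% of all kept probe sets with 1 symbol. The log2 differences were -2.34 for 209967_s_at, -2.32 for 207630_s_at, -2.06 for 214508_x_at and -2.41 for 230511_at, which are folds of 5.06, 4.99, 4.16 and 5.33. Probe set 228092_at differed by -0.30, or 1.23-fold. Sorted from the lowest difference, the first 4 took places 7 to 18 of 21262 probe sets above the floor on both arrays, and 228092_at place 6221.

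At 24 h the same 4 were again the ones past 2-fold, beside 5.26% of all kept probe sets. Their log2 differences from untreated cells were -5.15, -4.43, -3.75 and -4.00, and that of 228092_at was -0.79, or 1.73-fold. Probe set 209967_s_at, 35.5-fold lower, had the lowest difference of 21097 probe sets above the floor on both arrays, and the other 3 took places 3, 5 and 7. Place 1612 went to 228092_at.

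Between the treated arrays, CREM was lower still at 24 h. The differences were -2.81, -2.12, -1.70 and -1.58, in the order above, and -0.49 for 228092_at. The count past 2-fold was again 4 of 5, beside 1.96% of all kept probe sets. With a floor of 64, 230511_at differed by only -0.32 here, since its 24 h signal lies under that floor. In 209967_s_at the log2 decline from 6 h to 24 h was larger than that in the first 6 h, and in the other 3 steep probe sets it was smaller.

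The disagreement among the CREM probe sets was large for this table. Across the 5 kept probe sets the 24 h difference ranged over 4.36 log2 units, the widest range of 1178 genes with at least 4 kept probe sets, whose median range was 0.72. At 6 h the range was 2.11, place 11 from the widest, against a median of 0.69. A wide range needs a large difference in some probe set, and CREM was chosen for low signals in treated cells. These places are therefore a description. The pooled SD among probe sets of one gene was 0.38 at both times. For brighter genes, whose log2 signal averaged 8 or more, this SD was 0.26 at 6 h and 0.27 at 24 h. Probe sets of one gene share the same RNA and arrays. The SD therefore describes disagreement among probe sets and holds no variation between cultures or arrays. Without 228092_at, the 4 steep probe sets spanned -2.41 to -2.06 at 6 h and -5.15 to -3.75 at 24 h.

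The split did not follow the probe set names. Affymetrix marks probe sets that can pick up several transcripts with _s_at or _x_at, and 3 of the 4 steep probe sets carry such a suffix. The plain names are 228092_at and 230511_at, and these differed at 24 h by -0.79 and -4.00. Leaving out the suffixed ones therefore leaves 1 CREM probe set of 2 past 2-fold. Which transcripts or exons each probe set reads was not analysed here.

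**Figure D2:**
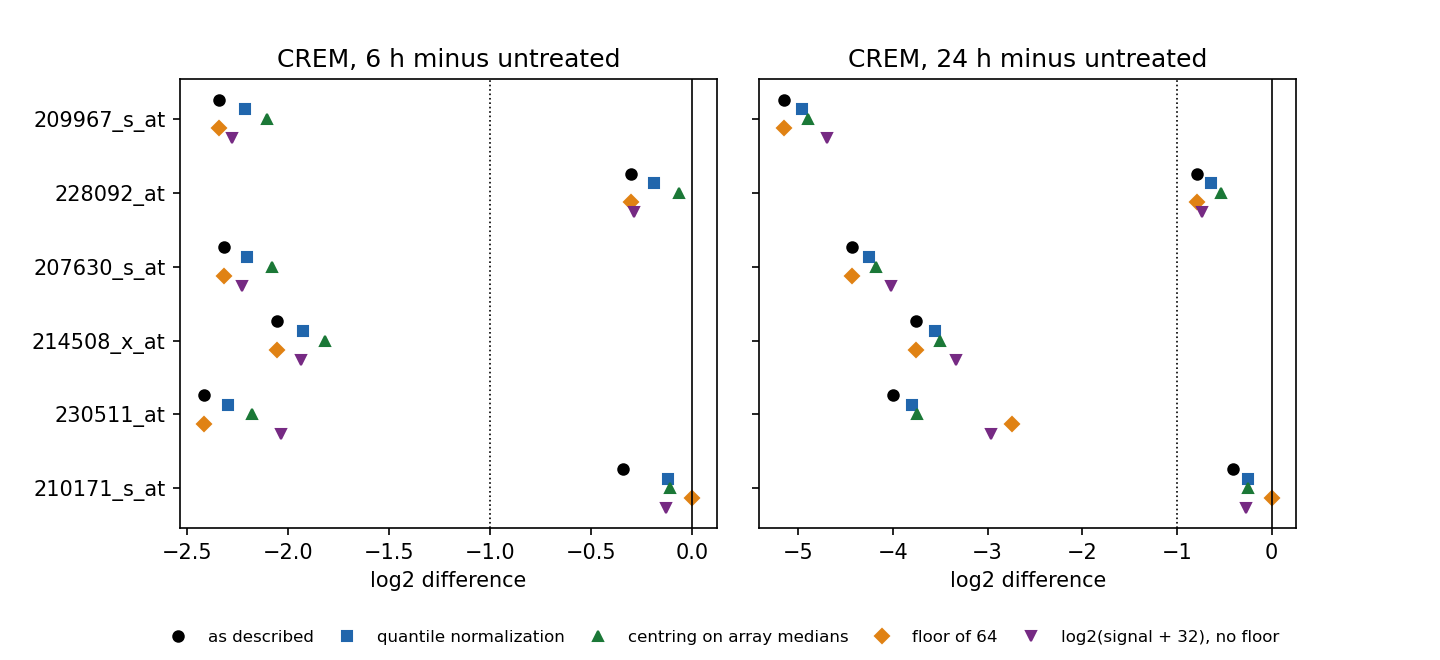
Log2 differences of the 6 CREM probe sets from untreated cells at 6 h (left) and 24 h (right) under 5 ways of scaling and flooring the signal, 1 marker per setting. In every setting shown, 209967_s_at, 207630_s_at, 214508_x_at and 230511_at stay left of the dotted 2-fold line and 228092_at and 210171_s_at stay right of it.

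CREB1, the constitutive partner of CREM, had 7 probe sets, and all passed the filter. At 6 h they differed by -0.25 to 0.15, with 0 past 2-fold, beside 1.36% of all kept probe sets higher and 4.32% lower. Probe set 204313_s_at read 527 untreated, 585 after 6 h and 484 after 24 h, and 225572_at read 602, 589.9 and 411. These signals stayed within 1.5-fold of each other. The largest log2 differences at 24 h were those of 225565_at, which read 357, 321 and 192, and 204314_s_at, which read 559, 470.3 and 336.

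Those last 2 were 1.86-fold and 1.67-fold lower at 24 h, with log2 differences of -0.89 and -0.74, and 225572_at differed by -0.55. The other 4 CREB1 probe sets (204313_s_at, 237289_at, 204312_x_at and 214513_s_at) lay between -0.21 and -0.06 at 24 h, close to the median of all probe sets, and were at or above 0 in at least 1 of the scaling alternatives. Of these, 237289_at read 179 untreated, 194 after 6 h and 166 after 24 h, 204312_x_at 127, 115 and 110.1, and 214513_s_at 78.1, 78.4 and 74.8. The median over CREB1 probe sets was -0.21 at 24 h, and 0.05 after centring on array medians. From 6 h to 24 h, 7 of 7 were lower, also under each of the 4 scaling and floor alternatives, beside 54.2% of all kept probe sets, with a median of -0.27 against -0.03.

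Of the CRTC coactivators, which act on the leucine zipper, CRTC1 gave no usable signal. Its 2 probe sets, 207159_x_at (13.5, 5.8 and 7.8) and 213091_at (4.4, 4 and 4.4), lay below the floor on every array. CRTC2, with 1 probe set (226307_at), read 114 without FK866, 72.3 at 6 h and 84.4 at 24 h, and differed by -0.65 and -0.43. CRTC3 read 301 in untreated cells and 185 at both treated times by 218648_at, which is 1.63-fold lower. Its second probe set, 232879_at, read 24.1, 13.1 and 19.3, and the 6 h value lies under the floor. In both genes the untreated array was the highest.

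The acetyltransferase EP300 was lower by both probe sets. Probe set 202221_s_at read 363 untreated, 188 after 6 h and 226 after 24 h, and 213579_s_at read 542, 379.5 and 334. Their log2 differences were -0.95 and -0.51 at 6 h and -0.69 and -0.70 at 24 h. The largest of these, 1.93-fold, was the closest to 2-fold of any member other than CREM at 6 h.

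Its paralogue CREBBP had 4 probe sets that did not agree. Probe set 202160_at read 758 without FK866, 598 at 6 h and 509.6 at 24 h, with differences of -0.34 and -0.57. Probe set 228177_at read 79.3, 100.2 and 74.8, so its 6 h array was the highest (0.34). The dim 211808_s_at read 18.3, 24.8 and 4.4, and 235858_at read at most 7.6. Only 202160_at was lower at each step.

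**Figure D3:**
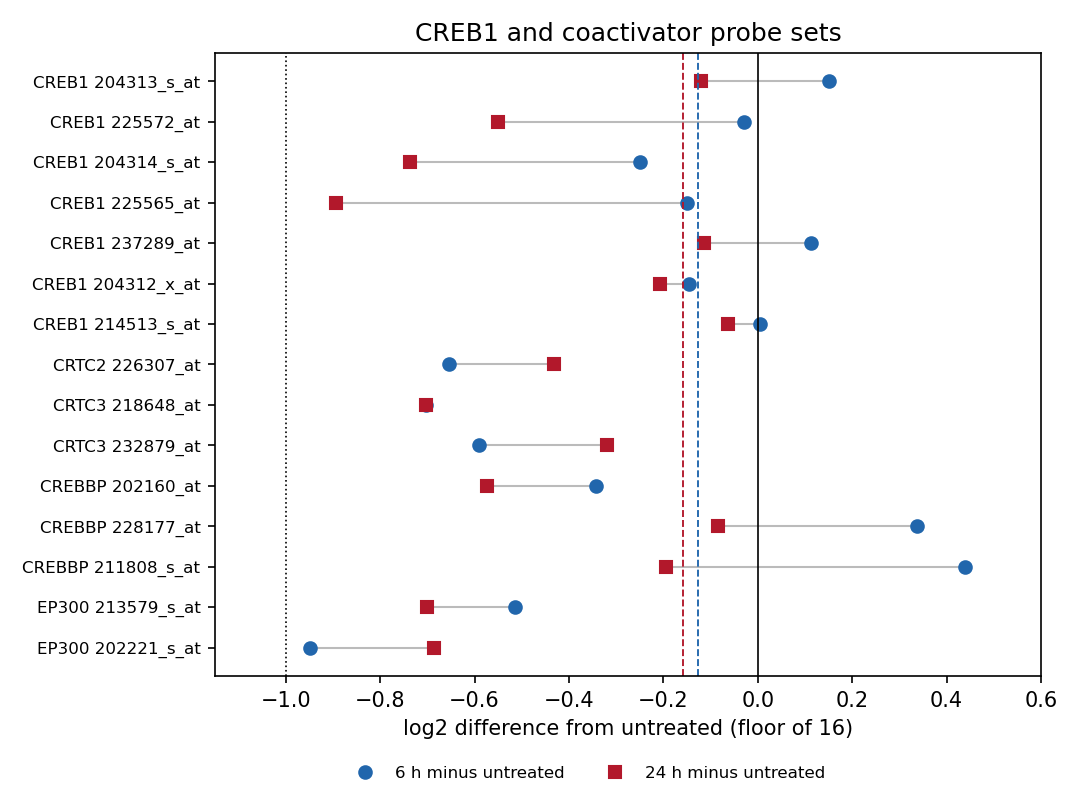
Log2 differences from untreated cells of the 15 kept probe sets of CREB1, CRTC2, CRTC3, CREBBP and EP300 at 6 h (circles) and 24 h (squares). Dashed lines are the medians over all kept probe sets with 1 symbol (-0.13 at 6 h, -0.16 at 24 h). The dotted line is 2-fold lower, which 0 of the 15 reached, beside 4.32% of all at 6 h and 5.26% at 24 h.

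Over the 15 kept probe sets other than CREM, 0 passed 2-fold, in either direction and in any of the 3 comparisons. On the higher side 1.36%, 1.11% and 1.14% of all kept probe sets did so at 6 h, at 24 h and between the treated arrays. On the lower side the shares were 4.32%, 5.26% and 1.96%. A count of 0 of 15 is near these shares. At least 1.5-fold lower were 4 of 15 at 6 h, beside 14.2% of all kept probe sets, and 5 of 15 at 24 h, beside 16.9%. Between the treated arrays 2 of 15 were, beside 8.5%. The 4 at 6 h belong to CRTC2, CRTC3 (both probe sets) and EP300, and the 5 at 24 h to CREB1 (both 225565_at and 204314_s_at), CRTC3 and EP300 (both probe sets). These 1.5-fold counts depend on the scaling. After quantile normalization only 218648_at of CRTC3 (-0.60) and 202221_s_at of EP300 (-0.85) remained at 6 h. At 24 h only 225565_at (-0.75) and 204314_s_at (-0.60) of CREB1 did. Centring on array medians left only 202221_s_at (-0.71) at 6 h and 225565_at (-0.64) at 24 h. Below 0 were 10 of 15 at 6 h, beside 64.9% of all, and 15 of 15 at 24 h, beside 67%. The last count was 11 of 15 after quantile normalization, beside 46.5% of all.

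The 8 kept coactivator probe sets had a median of -0.55 at 6 h and -0.50 at 24 h, against -0.13 and -0.16 over all kept probe sets. After quantile normalization these were -0.43 and -0.32, against 0.02 and 0.03. The CREB1 median at 6 h was -0.03, and 0.08 after quantile normalization. Whether the coactivators differ from CREB1 was not tested.

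A decline at each step, from untreated to 6 h and on to 24 h, was seen in 11 of 20 kept members, beside 29.1% of all kept probe sets. These were 5 of CREM, 4 of CREB1 (225572_at, 204314_s_at, 225565_at and 204312_x_at), 202160_at of CREBBP and 213579_s_at of EP300. The signals of CRTC2, 232879_at of CRTC3 and 202221_s_at of EP300 were lowest at 6 h instead. The members were chosen by CREM signals seen to be low in treated cells, so the 5 of CREM do not count as support. The 4 of CREB1 share the same RNA and arrays. The share of 11 of 20 is therefore a description.

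**Figure D4:**
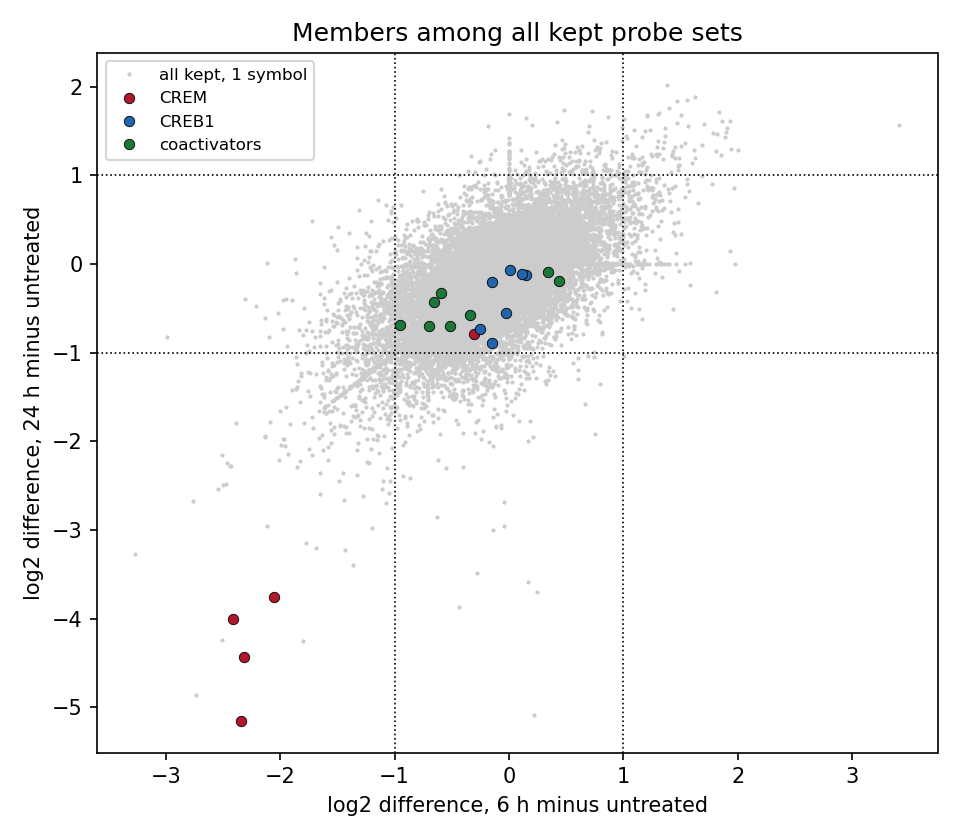
Log2 differences from untreated cells at 6 h (x) and 24 h (y) of all 22601 kept probe sets with 1 symbol (grey), with kept members coloured; dotted lines mark 2-fold. The axes share the untreated array. Of the CREM points, 4 lie at the lower left edge, between -2.41 and -2.06 on x and between -5.15 and -3.75 on y, and the others lie within the grey cloud.

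The genes whose 3 values ran most like those of 209967_s_at were found by the distance between log2 values after each probe set's own mean over the 3 arrays was subtracted. Among 22104 kept probe sets of other genes, the nearest was PDLIM3, which read 743 untreated, 112 after 6 h and 25.5 after 24 h, at a distance of 0.48. FBXO32, a ubiquitin ligase subunit, followed at 0.64, then MTSS1 (1.36), CSRP2 (1.37) and the transcription factor STAT4 (1.40). When only probe sets whose mean log2 signal reached 8 were taken, FBXO32 and STAT4 were followed by SAT1 (1.55), P2RY6 (1.73) and TESC (1.79). Not all of these were low at 6 h. There CSRP2 differed from untreated cells by -0.44, SAT1 by -0.28 and TESC by 0.17, against -2.34 for 209967_s_at. At 24 h these genes differed by -3.86, -3.48 and -3.59. PDLIM3, FBXO32, MTSS1, STAT4 and P2RY6 lay between -2.74 and -1.08 at 6 h. The nearest CREM probe set, 207630_s_at, lay at 0.58 and 228092_at at 3.09. Nearness over 3 arrays describes these arrays alone.

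Upstream of CREB, 23 of 31 listed genes of cAMP and PKA were measured, each by the brightest probe set it kept. At 6 h, 2 passed 2-fold on the higher side, beside 1.44% of 11883 genes, and 0 on the lower side, beside 3.32%. PKIA, an inhibitor of PKA's catalytic subunits, read 124 without FK866, 370 at 6 h and 219 at 24 h, a 2.98-fold gain in the first 6 h, and its second probe set differed by 0.65. PRKACB, a catalytic subunit, read 707, 1420 and 934, or 2.01-fold higher at 6 h, and its 3 probe sets ranged from -0.80 to 1.06. Under log2(signal + 32) PRKACB missed 2-fold. At 24 h, 0 were past 2-fold, beside 1.14% of genes higher and 4.17% lower, and PKIA differed by 0.82 and, by its second probe set, -0.29. The 24 h count became 1 higher (PKIA) after quantile normalization or centring on array medians, and 1 lower (GNAS) without _s_at and _x_at probe sets. Dimmer kept probe sets were at least 2-fold lower at 24 h in 4 genes (AKAP10, AKAP11, GNAS and PRKAR1A), beside 8.43% of genes with any such probe set, and at 6 h in AKAP10, beside 7.18%. The list medians were 0.08 at 6 h and -0.04 at 24 h, against -0.10 and -0.13 over all genes.

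By the brightest kept probe set of each gene, the regulators next to the members stayed within 2-fold of untreated cells. Over all genes, 1.44% were at least 2-fold higher and 3.32% lower at 6 h. At 24 h these shares were 1.14% and 4.17%, so counts of 0 among so few genes are near them. Of 12 other kinases that can phosphorylate CREB, 12 were measured and 0 differed 2-fold, with medians of -0.23 and -0.35. Of 12 regulators of the CRTC proteins, 12 were measured and 0 differed 2-fold, with medians of -0.08 and -0.04. SIK2 and SIK3, kinases that hold CRTCs in the cytoplasm, differed by -0.73 each at 24 h, and were singled out after their values were seen. The 5 kept probe sets of SIK3 ran from -1.13 to -0.47. Of 18 other CREB and ATF factors, 15 were measured and 0 differed 2-fold from untreated cells, with medians of 0.04 and -0.17. Between the treated arrays 1 of them did, ATF2, which binds the CRE and read 1403 untreated, 1554 after 6 h and 751 after 24 h, or 2.07-fold lower at 24 h than at 6 h, beside 1.84% of genes. Dimmer probe sets passed 2-fold on the lower side in 3 CRTC regulators at 6 h (SIK1 -1.05, PPP2CA -1.04 and STK11 -1.02), beside the same 7.18% of genes. At 24 h they did so in SIK3, in the kinase CAMK2G (-1.44) and in 3 of the other factors (ATF5 -1.37, CREBRF -1.07 and CREBZF -1.03), beside 8.43%. Without _s_at and _x_at probe sets, SIK1 was 1 CRTC regulator called lower at 6 h.

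Genes often named as CREB targets held a larger share of low members. Of 30 listed genes 19 were measured. At 6 h, 5 were at least 2-fold lower and 0 higher, which is 26.3% beside 3.32% of all genes. At 24 h 7 were lower and 0 higher, 36.8% beside 4.17%. Among the genes called at both times, NR4A1, NR4A2 and NR4A3 read at most 27.3 on the treated arrays. They passed the filter on level only through their untreated signals, and so could only be called lower. With a floor of 64 the counts fell to 3 and 4 of 27, or 11.1% and 14.8% beside 0.582% and 0.814% of genes. With the filter at the 75th percentile they fell to 2 and 3 of 12, or 16.7% and 25% beside 1.24% and 1.74%. The list medians were -0.26 and -0.17, against -0.10 and -0.13 over all genes. Earlier results of these arrays were known when the list was written, and PDE4B was among them, so the counts are a description.

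The lowest were NR4A3 and NR4A2, orphan nuclear receptors, and PDE4B, a phosphodiesterase that degrades cAMP. NR4A3 read 154 without FK866, 8.3 at 6 h and 1.3 at 24 h, at least 9.62-fold lower at both times because the treated signals lie under the floor. NR4A2 read 88.4, 15.9 and 18.6, a fold of at least 5.53 at 6 h, where the signal lies under the floor, and of 4.75 at 24 h. PDE4B read 725, 179 and 157, or 4.04-fold and 4.62-fold lower, with 3 probe sets between -2.01 and -0.90 at 6 h. These 3 genes were low at both times.

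Further members, singled out after their values were seen, followed different courses. RGS2, a regulator of G protein signalling, read 3854, 1846 and 1469, or 2.09-fold and 2.62-fold lower. CXCR4, a chemokine receptor, read 3031, 2413 and 1013, or 1.26-fold and 2.99-fold lower. NR4A1, at 54.8, 15.8 and 27.3, was at least 3.42-fold lower at 6 h, where the signal lies under the floor, and 2.01-fold lower at 24 h. Its other kept probe set differed by -2.48 at both times. The calls of RGS2 at 6 h and NR4A1 at 24 h were lost after quantile normalization or centring on array medians. PDE4D differed by -1.40 at 24 h, with another of its probe sets at -0.05. At 24 h 14 of 19 listed genes lay below their untreated level, and NPAS4 (0.64), GADD45B (0.45), DUSP1 (0.45), GEM (0.32) and IRS2 (0.10) lay above it. NPAS4 read 2.7 untreated, 18.3 at 6 h and 24.9 at 24 h, so its difference is taken from the floor of 16. It passed the filter on level only through its treated signals.

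**Figure D5:**
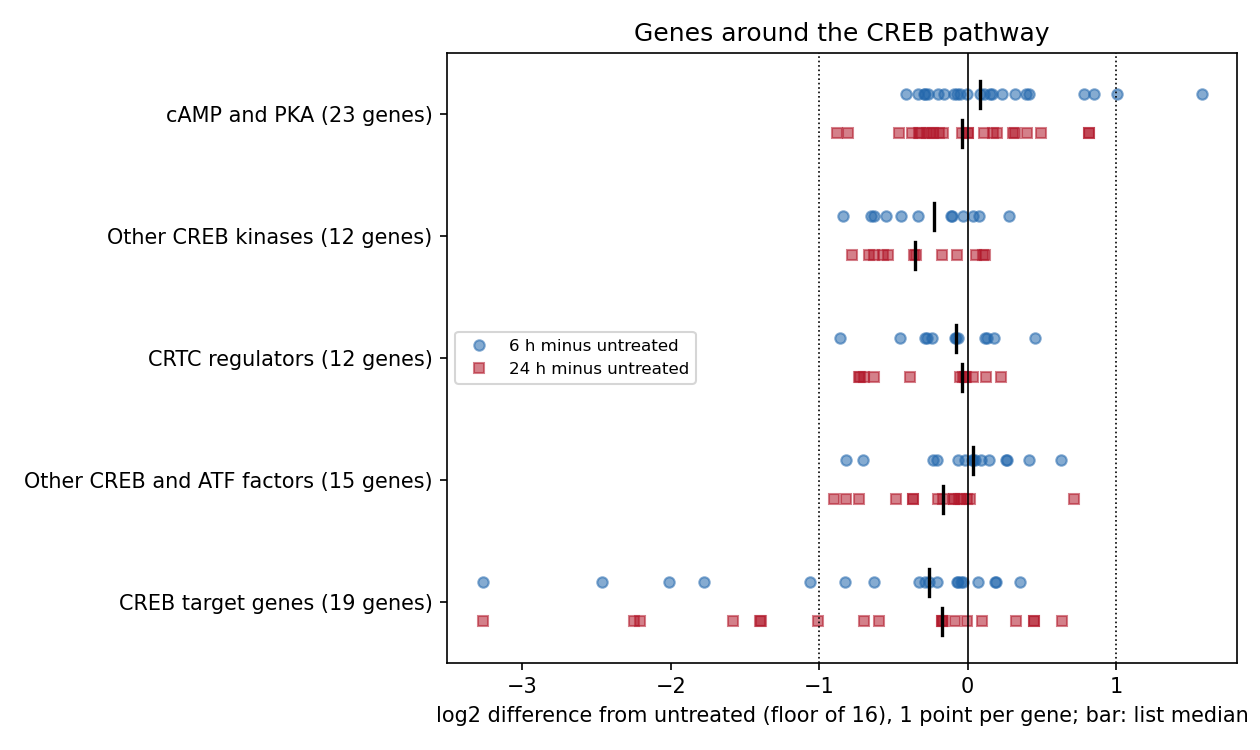
Log2 differences from untreated cells at 6 h (circles) and 24 h (squares) for the measured genes of the 5 lists around the members, 1 point per gene, with list medians as bars and 2-fold as dotted lines. The CREB target genes have 5 points left of -1 at 6 h and 7 at 24 h, and in the cAMP and PKA list PKIA (1.58) and PRKACB (1.01) lie right of 1 at 6 h.

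Genes with a CRE before any annotated start were described in the same way. Of 334 measured genes with TGACGTCA, 2.99% were at least 2-fold lower at 6 h and 5.99% at 24 h, beside 2.98% and 3.83% of 9686 measured genes with a promoter window. Of 197 with TGATGTCA, 5.58% and 8.63% were. The medians at 24 h were -0.18 and -0.19, against -0.12. CREM itself holds both motifs, and TGATGTCA was chosen after its windows were read, so these shares are a description. No test was run on them.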

How the data were processed

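The values are those the authors deposited: 1 intensity per probe set and array on a linear scale, from arrays hybridised with biotinylated cRNA from 1 µg of total RNA, per the labels' protocols. The probe summary, background correction and scaling were not given in the sources used here. No detection call was used. Precision is limited by the number of arrays. Of 54675 probe sets, 62 are controls and 41091 others have 1 symbol in GEO's platform annotation of 2016, of which 41037 matched RefSeq by gene identifier.

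Signals below 16 were set to 16, and log2 values taken. Probe sets with a mean log2 value at or above the median of those other than controls were kept: 22601 with 1 symbol, 20 of 24 members. Differences are log2 differences between 2 arrays. All 24 member probe sets are named. Of the other lists the rule names genes past 2-fold, at most 3 each way and time, and of genes like CREM the nearest 5. The members and lists were chosen with earlier results of these data known. The procedure was tested on simulated data, with changes placed in bright probe sets only and noise of a fixed size. This says nothing on dim probe sets or on variation between cultures. Alternatives covered scaling, floor, filter, suffix and size. Python 3.11.15, numpy 2.4.6, pandas 2.3.3 and matplotlib 3.10.9 were used.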

Additional observations from a re-analysis of the deposited data

Results flagged for a closer look

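Probe sets whose difference from untreated cells was positive at 6 h and negative at 24 h were looked at again; both differences share the untreated array, and the change of direction was not tested. In CREB1 these were 204313_s_at (0.15 and -0.12), 237289_at (0.11 and -0.11) and 214513_s_at (0.0055 and -0.062). In CREBBP they were 228177_at (0.34 and -0.084) and 211808_s_at (0.44 and -0.19), the latter with its 24 h signal under the floor. After quantile normalization and after centring on array medians, the 24 h values of the 3 CREB1 probe sets and of 228177_at were above 0.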

How the results depend on the processing

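No paired analysis was possible because each group has 1 array. The count of 4 member probe sets at least 2-fold lower held in each of the 3 comparisons under quantile normalization, centring on array medians and no filter on level, and was 3 with a filter at the 75th percentile. Without _s_at and _x_at probe sets it was 1 in each comparison. At 1.5-fold it was 8 at 6 h, 10 at 24 h and 6 between treated arrays, and for members other than CREM 4, 5 and 2. At 6 h and 24 h, several of these other members missed 1.5-fold after quantile normalization or centring on array medians. Between the treated arrays, 230511_at of CREM missed 2-fold with a floor of 64 (-0.32) or log2(signal + 32) (-0.93), which left 3. Counts over probe sets whose mean log2 signal reached 8 were added after seeing the data, and gave 3 in each comparison. With a floor of 64 the median equals the floor, so the filter keeps all 41091 probe sets. Dim probe sets, among them those of CRTC1, allow no statement.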
